A study of Drosophila melanogaster with 4 samples.

Results

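The 10 genes described here encode 9 subunits of kinesin motors and Kap3, the accessory protein of the kinesin-2 motor. They were taken as a named list (Kap3, Klp64D, Klp68D, Khc, Klc, Klp10A, Klp61F, ncd, nod and Klp3A), and their probes were found by annotation ID. They are 10 of 13059 genes with a named probe and are read by 14 of 32162 probes. The list was chosen by ratios of null over w1118 and detection calls on these same arrays, with no threshold, so the levels and ratios of the 10 genes are given as a description without a test. Drosophila melanogaster embryos null for the 8-miR cluster, which is a set of neighbouring microRNA genes, were set against w1118 embryos, and both genotypes shared the w1118 background, a white-eyed laboratory strain. Flies laid eggs for 2 h and the embryos were aged for 6 h at 25 °C, which gave whole embryos 6 to 8 h old. Total RNA of 3 independently isolated replicates per genotype was hybridised to 2-colour arrays, 1 extract of each genotype per array. The null was labelled with Cy3 and w1118 with Cy5 in replicates 1, 2 and 3. Replicate 1 was hybridised to a further array in the opposite dye orientation (the dye-swap array), and replicates 2 and 3 were not. The labels conflict on the genotype: titles and source names give the 8-miR cluster, while the genotype field names a miR-8 cluster and a protocol field mentions ectopic mir-3. They do not say how the deletion was made, and no cluster microRNA was checked on these arrays.

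Kinesins are motor proteins that use ATP to move along microtubules, most of them toward the plus end. Kinesin-1, built from the heavy chain Khc and the light chain Klc, carries mitochondria, vesicles and RNA. Kinesin-2, built from the motor chains Klp64D and Klp68D and the non-motor Kap3, carries cargo in axons and builds the cilia of sensory neurons. Klp10A, Klp61F, ncd, nod and Klp3A act on spindles and chromosomes in mitosis or meiosis.

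All ratios below are log2 of null over w1118, given as mean ± SD over 3 replicates, with the 2 arrays of replicate 1 averaged first. Between 56.71% and 65.79% of spots were well above background in a channel. Each of the 10 markers of embryonic tissues listed for this age (such as elav, srp and twi) was measured, 1 of them higher and 4 lower in the null. All 3 yolk protein genes, markers of adult females, were measured, Yp1 and Yp2 were lower in the null, and their summed signal ran from 347 to 364 in the null and from 466 to 524 in w1118. Of 4 testis and male gland markers, Mst87F, dj and Acp26Aa were not well above background. Acp36DE was, and it was called lower in the null at -0.14. Of 2 adult eye markers, ninaC was not measured and ninaE was called lower in the null at -0.29. The ninaE signal was low too, from 75 to 95 in the null and from 85 to 151 in w1118. It was above background on 3 of 4 arrays in the null. Of 5 maternal and germ line genes, bcd, vas and CycB were higher and osk was lower in the null, with a summed signal of 27890 to 32977 in the null and 21964 to 28553 in w1118. CycB was at 0.26 by its brightest probe but -0.02 and 0.01 by its other probes, while the other bcd probe gave 0.66. What part these marker differences have in any result below was not tested. In whole embryos, fewer cells of a type and less RNA per cell cannot be told apart.

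The 10 genes spread from Kap3 at -4.93 to nod at 0.36. Of the 14 probes, 12 were above background in both genotypes on all 4 arrays, 1 was so in w1118 only, and 1 in neither genotype on any array. By the threshold used over all genes (limma, Benjamini-Hochberg adjusted p under 0.05), Kap3, Klp68D and ncd lay lower, nod lay higher and 6 genes did not pass. Of all 9737 genes tested, 54.7% passed that threshold, 28.1% higher and 26.6% lower, and nothing is read from the 4 of 10. The median ratio of the 10 genes was 0.00, beside 0.01 for all genes tested. By their brightest probes, 7 of the 10 genes had 1 sign on all 4 arrays: Kap3, Klp68D, Khc, Klp10A, ncd, nod and Klp3A. The share of all genes with 1 sign was not computed, and nothing is read from the 7. Nor was the share of all genes without overlap between genotypes computed, so overlap is given below as a description only.

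**Figure D1:**
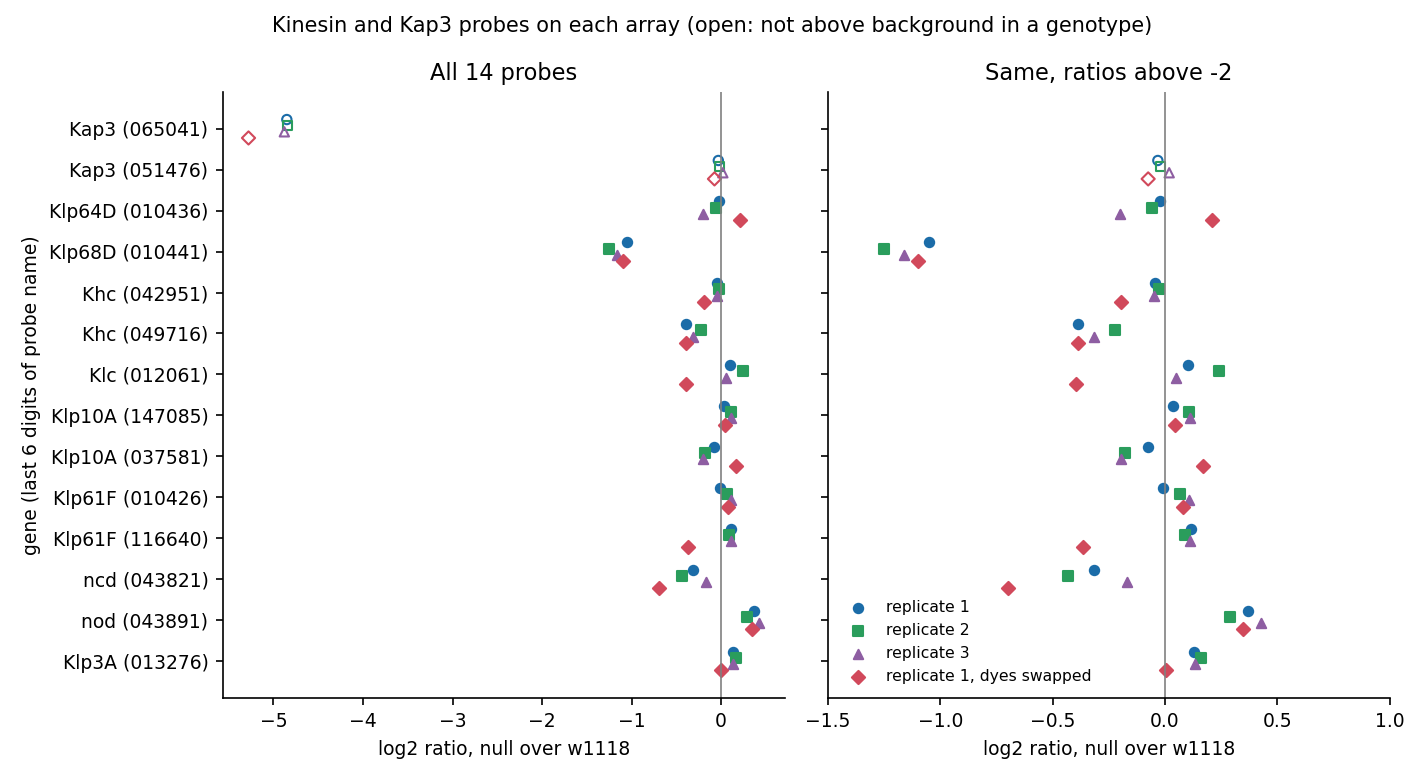
Log2 ratio of null over w1118 for each of the 14 probes of the 10 genes, with 1 point per array and the dye-swap array of replicate 1 marked apart. As means of 3 replicates, which are not drawn, 1 Kap3 probe gave -4.93, Klp68D -1.16 and the remaining probes -0.37 to 0.36. Single points of the remaining probes run from -0.70 to 0.43.

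Kap3 (CG11759, chromosome X), the subunit that links the kinesin-2 motor chains to cargo, was bright in w1118 and not well above background in the null. Its probe A_09_P065041 had a normalized log2 signal of 10.93, 11.00 and 11.13 in w1118 on the arrays of replicates 1, 2 and 3, and of 11.01 on the dye-swap array. In the null the same probe read 6.08, 6.16, 6.25 and 5.73. The 2 genotypes did not overlap, and the w1118 values lay within a narrow band whichever dye carried them. The scanner's unnormalized brightness was 2805, 1960, 2211 and 1800 in w1118, over local backgrounds of 55, 46, 48 and 23.5. In the null it was 41, 29, 30 and 60, over local backgrounds of 30, 21, 17 and 49.5. The null spot was therefore close to its own surround on all 4 arrays, and it was called well above background on 0 of 4 arrays, against 4 of 4 in w1118.

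The Kap3 ratio was -4.85, -4.85 and -4.88 in replicates 1, 2 and 3 and -5.28 in the dye swap, with a mean of -4.93 ± 0.12 (SD, n = 3). Slide 1, which held both arrays of replicate 1, gave -5.06 and slide 2, which held replicates 2 and 3, gave -4.86. Because the null lay near background on every array, the difference is a bound, and w1118 was at least 30.1-fold higher (mean log2 signal 11.03 in w1118 and 6.10 in the null). For the bound, the null was set on each array to the dimmest signal called well above background, or to the probe's own value where that was larger. The own value was the larger on 3 of 4 arrays, so the bound is close to the fitted fold of 30.5. Dye bias may enter this bound, since replicates 2 and 3 were not swapped. A pattern of a probe above background on all 4 arrays in w1118 and none above it in the null was found in 40 genes, 0.411% of those tested. The size of the ratio depended on the background correction: it was -7.25 with an offset of 0 and -8.67 with the scanner's own processed signals.

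A second probe named for the same transcript of Kap3 (RB), A_09_P051476, gave no measure of the gene. Its brightness was 64, 54, 55 and 37 in w1118, over backgrounds of 48, 48, 44 and 24, and it was above background in neither genotype on any array. Its ratio of -0.02 ± 0.04 is therefore not a level comparison, and the Kap3 difference rests on 1 spot per array. The table does not give where either probe lies within the transcript.

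Klp68D (CG7293, chromosome arm 3L), 1 of the motor chains that bind Kap3, was lower in the null and above background in both genotypes on all 4 arrays. Its normalized log2 signal was 9.49, 9.47, 9.32 and 9.51 in w1118, and 8.44, 8.22, 8.16 and 8.41 in the null (replicates 1, 2 and 3, then the dye swap). The genotypes did not overlap on this scale, and the gap was alike on every array. The ratios were -1.05, -1.25, -1.16 and -1.10, with a mean of -1.16 ± 0.09, or 2.24-fold lower in the null. It was -1.08 on slide 1 and -1.21 on slide 2, and the 2 spots of the probe differed by an SD of 0.04 to 0.21 within an array. This was the 135th lowest ratio of 9737. Of all genes, 1.85% passed the threshold with a ratio at least 2-fold lower, and 1.88% with one at least 2-fold higher.

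Klp64D (CG10642, chromosome arm 3L), the other kinesin-2 motor chain, gave values close to 0. Its normalized log2 signal was 9.18, 9.41, 9.53 and 9.13 in w1118, and 9.16, 9.35, 9.33 and 9.34 in the null. The genotypes overlapped. The ratios were -0.02, -0.06, -0.20 and 0.21, so the dye-swap array lay on the other side of 0 from the 3 unswapped arrays. The mean was -0.06 ± 0.15, with 0.09 on slide 1 and -0.13 on slide 2. Within the kinesin-2 complex the 3 subunit genes thus had 3 different readings: Kap3 at the background in the null, Klp68D 2.24-fold lower but detected there, and Klp64D near its w1118 value.

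**Figure D2:**
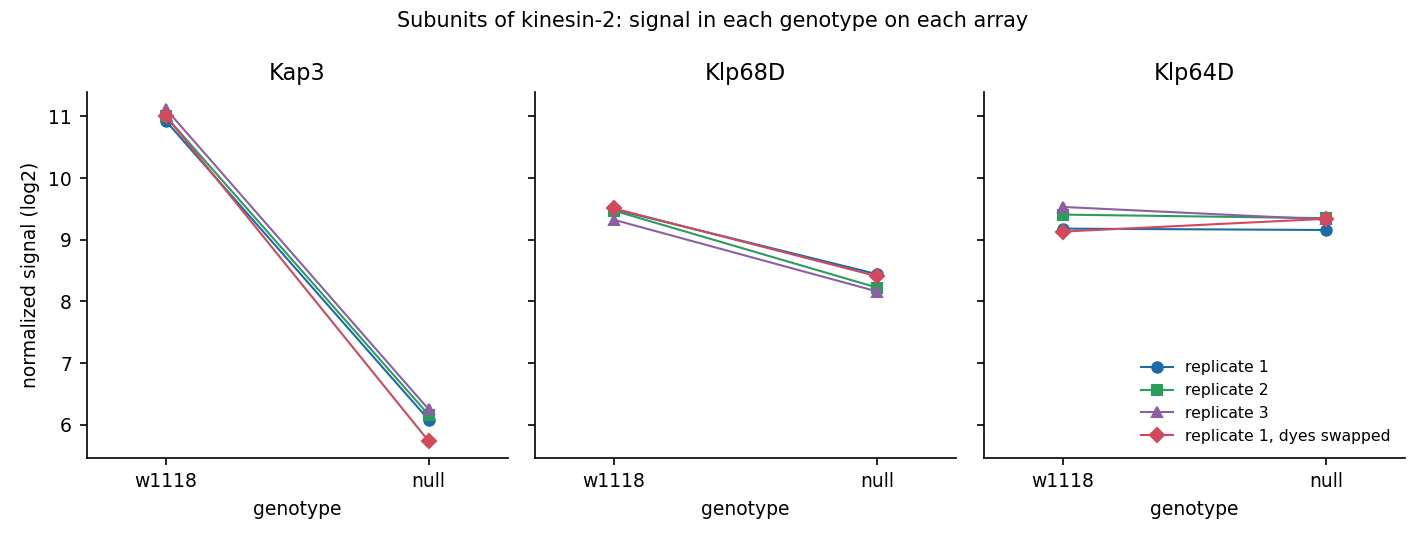
Normalized log2 signal of the brightest probe of Kap3, Klp68D and Klp64D in the null and in w1118 on each of the 4 arrays. Kap3 and Klp68D show no overlap between genotypes, with w1118 means of 11.03 and 9.43 against 6.10 and 8.27 in the null, while the Klp64D points overlap. Heights of different probes are not comparable with each other.

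Khc (CG7765, chromosome arm 2R), the motor chain of kinesin-1, was read by 2 probes above background in both genotypes. The brighter, with 10 spots on each array, gave ratios of -0.05, -0.02, -0.05 and -0.20, with a mean of -0.07 ± 0.05. The other gave -0.39, -0.22, -0.32 and -0.39, with a mean of -0.31 ± 0.08. All 8 readings lay below 0, and the 2 probes, both named for transcript RA, differed in size by more than the spread between replicates of either. Spots of the brighter probe varied by an SD of 0.07 to 0.19 within an array. Klc (CG5433, chromosome arm 3L), the light chain that binds cargo adaptors, had ratios of 0.10, 0.24 and 0.05 without the swap and -0.39 with it. Its mean was 0.05 ± 0.19, the widest spread among the brightest probes of the 10 genes. The 2 arrays of replicate 1 held the same extracts and lay on opposite sides of 0.

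Klp10A (CG1453, chromosome X), a kinesin-13 that shortens microtubules at their ends, had 2 measured probes of opposite sign. The probe named for transcript RC gave 0.04, 0.11, 0.11 and 0.04, with a mean of 0.09 ± 0.04. The probe named for RE gave -0.08, -0.18, -0.20 and 0.17, with a mean of -0.11 ± 0.14. Both means lay within 0.11 of 0, and the RE probe changed sign on the dye-swap array. Klp61F (CG9191, chromosome arm 3L), a kinesin-5 that pushes spindle poles apart, gave -0.01, 0.07, 0.11 and 0.08 by its brighter probe, a mean of 0.07 ± 0.04. Its other probe gave 0.11, 0.09, 0.11 and -0.37, a mean of 0.03 ± 0.13. Neither probe kept 1 sign on all 4 arrays. Klp3A (CG8590, chromosome X), a chromokinesin of the spindle midzone, had ratios of 0.13, 0.16, 0.13 and 0.00, a mean of 0.12 ± 0.05. Its 3 unswapped arrays were alike and the dye-swap array showed no difference.

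ncd (CG7831, chromosome arm 3R), a kinesin-14 that moves toward minus ends and focuses spindle poles, was lower in the null by 1.29-fold. Its normalized log2 signal was 12.29, 12.24, 11.91 and 12.55 in w1118 and 11.98, 11.80, 11.74 and 11.85 in the null. The null was the lower on every array, although the lowest w1118 value lay below the highest null value. The ratios were -0.32, -0.43, -0.17 and -0.70, with a mean of -0.37 ± 0.18, and with -0.51 on slide 1 and -0.30 on slide 2. nod (CG1763, chromosome X), a chromokinesin that holds achiasmate chromosomes on the meiotic spindle, was higher in the null by 1.28-fold. Its normalized log2 signal was 10.79, 10.78, 10.72 and 10.84 in the null and 10.42, 10.49, 10.30 and 10.49 in w1118. The genotypes did not overlap, but without the share over all genes nothing is read from this. Its ratios of 0.37, 0.29, 0.43 and 0.34 gave a mean of 0.36 ± 0.07, the same 0.36 on both slides, and its 2 spots differed by an SD of at most 0.04 within an array. Both were above background in both genotypes on all arrays.

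**Figure D3:**
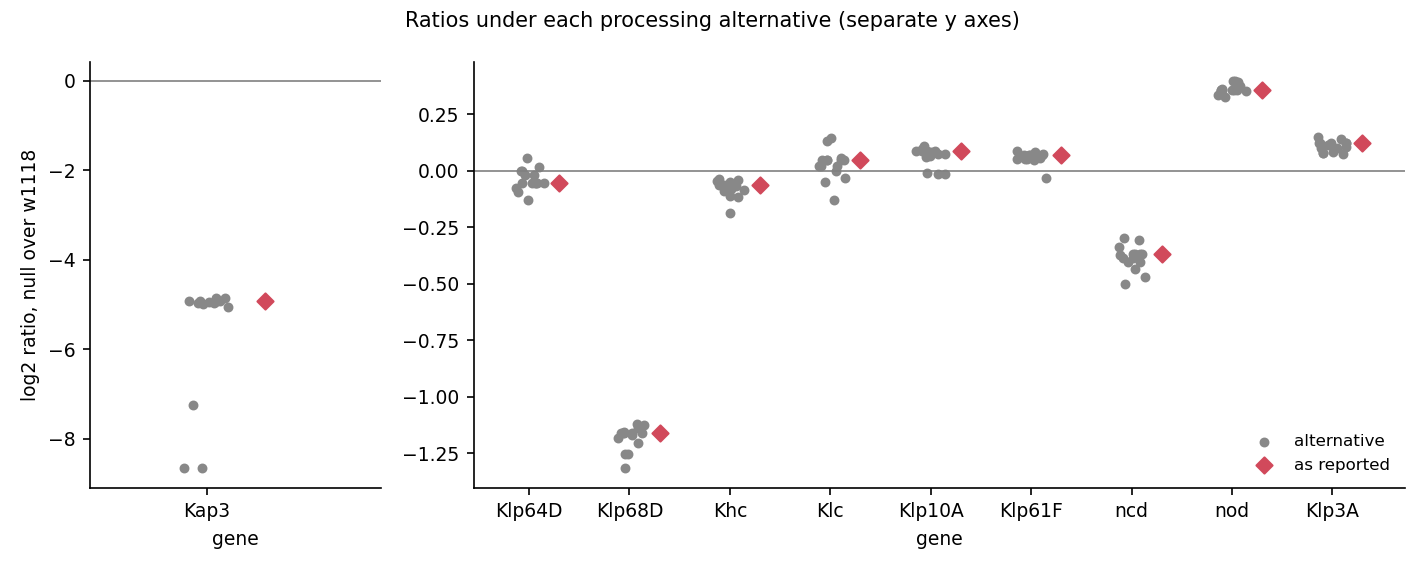
Ratio of each of the 10 genes under the main processing and the 15 alternatives, as log2 of null over w1118. Kap3 runs from -8.67 to -4.86, Klp68D from -1.32 to -1.12, ncd from -0.50 to -0.30 and nod from 0.32 to 0.40, while the remaining genes lie between -0.19 and 0.15.

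The genes nearest to the 10 on their chromosomes were examined next, since position had no part in drawing up the list. Of 20 measured neighbours (the nearest on each side in a RefSeq gene table of the Release 6 assembly), 8 were higher, 5 were lower and 7 did not pass the test, beside the 28.1% higher and 26.6% lower among all genes. Beside Kap3, Gapvd1, a regulator of Rab GTPases in endocytosis, fell by 0.45 on the log2 scale (SD 0.07, limma adjusted p = 0.000426). CG34348, which overlaps Kap3, rose by 0.17 ± 0.07 (limma adjusted p = 0.0244), a call lost without replicate 2 and without replicate 3. The genes on both sides of Kap3 were thus detected in the null on all 4 arrays. Beside Klp68D, CG10907 rose by 0.64 ± 0.08 (limma adjusted p = 0.000111) and Gcat, named for glycine C-acetyltransferase, fell by 0.54 on the log2 scale (SD 0.10, limma adjusted p = 0.000325). The Gcat ratio was -1.04 with offset 0 and -1.33 with processed signals. The neighbours of Klp64D did not pass, with lama at -0.08 and Cyt-c1, a subunit of respiratory complex III, at -0.04.

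Beside Khc, the proneural gene cato fell by 0.54 on the log2 scale (SD 0.17, limma adjusted p = 0.00098), and csul, an arginine methyltransferase gene, lay at 0.00. Both neighbours of Klp10A rose, SrpRalpha by 0.41 ± 0.12 (limma adjusted p = 0.00146) and CDK2AP1 by 0.31 ± 0.06 (adjusted p = 0.002). CG7789, which overlaps ncd, rose by 0.44 ± 0.06 (limma adjusted p = 0.000446), while ca, which overlaps it on the other side, had 0.09 ± 0.28 by its brightest probe and -0.36 by another. The strand read by each probe was not checked here, so overlapping pairs are uncertain. CG9192 beside Klp61F fell by 0.52 on the log2 scale (SD 0.15, limma adjusted p = 0.000788) and was above background in the null on 2 of 4 arrays. In w1118 it was so on 4 of 4, so its p may be no independent evidence of the difference. The CG9192 ratio was -1.26 with offset 0 and -2.40 with processed signals. CG32318 on the other side of Klp61F rose by 0.20 ± 0.06 (limma adjusted p = 0.0108), a call lost without replicate 3. CG32109, which overlaps Klc, had a ratio of -0.18 ± 0.07 (limma adjusted p = 0.0179). egh, a glycosphingolipid synthesis gene beside Klp3A, had 0.15 ± 0.08 (limma adjusted p = 0.0365). The calls of CG32109 and egh were each lost without replicate 2 and without replicate 3. CG10984, lncRNA:roX2 and the kinetochore gene Zw10, at 0.04, 0.06 and 0.11, did not pass.

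With the main background correction, the 3 genes whose ratios on the 4 arrays lay nearest to those of Kap3, by Euclidean distance, were CG9498 (distance 0.521), Drsl5 (0.580) and Muc18B (0.967). On the dye-swap array they gave -5.50, -5.34 and -5.39, against -5.28 for Kap3. CG9498 had a mean of -5.18 ± 0.15, Drsl5, a gene of the Drosomycin family of antifungal peptides, -5.21 ± 0.08, and Muc18B, a mucin gene, -5.41 ± 0.21. The likeness covers 4 arrays of 1 contrast and depends on the background correction, since Kap3 is limited by background in the null. With processed signals CG9498 gave -6.97, Drsl5 -6.25 and Muc18B -6.07, against -8.67 for Kap3. These 3 genes could also be measured where both channels had to be above background on all arrays, and Kap3 could not.

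Lists of other genes of microtubule transport were read in the same fit, and their counts stand beside the same 28.1% and 26.6% of all genes and the median of 0.01. Of 16 further genes of the kinesin superfamily, 11 were measured, and 5 rose, 1 fell and 5 did not pass. unc-104, the kinesin-3 that carries synaptic vesicle precursors, rose by 0.49 ± 0.10 (limma adjusted p = 0.000418). pav, the kinesin-6 of the central spindle, rose by 0.46 ± 0.05 (limma adjusted p = 0.000285). neb, a mitotic kinesin, rose by 0.28 ± 0.19 (limma adjusted p = 0.0201), with 0.11 and 0.12 by its other probes. It gave -0.07 on the dye-swap array, and its call was lost without replicate 3. Kif3C, which shares its name with a kinesin-2 motor of mammals, fell by 0.35 on the log2 scale (SD 0.10, limma adjusted p = 0.00201). The remaining calls were Klp98A, a kinesin of endosomes, at 0.17 and Klp31E at 0.18, the latter with -0.09 by its other probe and -0.02 on the dye-swap array. Klp67A, which acts on spindle length, lay nearest to 0 at 0.02. The median was 0.05, with 0.06 on slide 1 and 0.11 on slide 2, and none of the 11 reached 2-fold. Without replicate 3 only 2 were called higher. Klp59C, Klp59D, Kif19A and sub were not above background often enough to be measured, and Klp54D had 0 named probes.

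All 10 genes of the kinesin-1 cargo adaptor and cofactor list were measured, and 2 rose, 4 fell and 4 did not pass. syd, a JIP scaffold that links kinesin-1 to axonal cargo, fell by 0.63 on the log2 scale (SD 0.18, limma adjusted p = 0.000604). It gave only -0.14 on the dye-swap array, against -0.73 and -0.74 in replicates 2 and 3. Unc-76, an adaptor that binds Khc, fell by 0.31 (SD 0.17, limma adjusted p = 0.0111), but its other probe gave 0.03 and the call was lost without replicate 1. Miro, the GTPase that anchors the motor to mitochondria, fell by 0.29 (SD 0.06, limma adjusted p = 0.00267), with a dye-swap value of 0.00. Pat1 was also called, at -0.15, with 0.02 on the dye-swap array. Tm1, a tropomyosin gene with an isoform that binds Khc on oskar RNA, rose by 0.24 ± 0.07 (limma adjusted p = 0.00625), while its 8 other probes ran from -0.41 to 0.26. ens, which recruits kinesin-1 to microtubules, rose by 0.14 ± 0.06 (limma adjusted p = 0.0402), a call lost without any 1 of the 3 replicates. milt, the mitochondrial adaptor that binds Khc, lay at 0.03, and its 3 other probes ran from -0.25 to 0.72. The median of the list was -0.07, with -0.10 on slide 1 and -0.04 on slide 2.

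Cytoplasmic dynein, the motor that moves toward minus ends, and its activator dynactin had 18 of 20 genes measured, of which 4 rose, 6 fell and 8 did not pass. DCTN5-p25, a subunit at the pointed end of dynactin, fell by 0.85 on the log2 scale (SD 0.15, limma adjusted p = 0.000102), although its other probe gave 0.01. Spindly, a kinetochore adaptor of dynein, fell by 0.54 (SD 0.10, limma adjusted p = 0.000289), and DCTN1-p150, the dynactin arm that binds dynein, by 0.38 (SD 0.20, adjusted p = 0.00652). Also lower were Lis-1 at -0.23, nudE at -0.24 and DCTN4-p62 at -0.19. On the dye-swap array DCTN5-p25 gave -0.67, Spindly -0.24, Lis-1 -0.19, DCTN1-p150 -0.09, nudE -0.01 and DCTN4-p62 0.13. The light chain gene ctp rose by 0.37 ± 0.14 (limma adjusted p = 0.00292), the light intermediate chain gene Dlic by 0.29 ± 0.09 (adjusted p = 0.00411), and the cargo adaptor gene BicD by 0.24 ± 0.12 (adjusted p = 0.0144). Dlc90F was also called, at 0.18, and egl, an RNA cargo adaptor, lay at 0.02 ± 0.31. Of the genes called higher, BicD gave 0.57, Dlc90F 0.32, and ctp and Dlic 0.07 each on the dye-swap array. The median was -0.05, with -0.04 on slide 1 and -0.05 on slide 2. Without replicate 3, 3 genes were called lower. Cdlc2 was not measured and sw had 0 named probes.

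Intraflagellar transport, which kinesin-2 drives in cilia, and other ciliary genes had 16 of 20 genes measured, of which 5 rose, 4 fell and 7 did not pass. nompB, a core subunit of the transport particle, was lower in the null by at least 2.40-fold, with -1.26 ± 0.11 (limma adjusted p = 9.48e-06). Like Kap3, it was above background on 4 of 4 arrays in w1118 and on 0 of 4 in the null. It thus passed the filter through w1118 alone, where it was high, and its p is no independent evidence of the difference. Its bound equals the fitted fold because its own null value exceeded the dimmest detected signal each time. BBS4, a BBSome subunit, fell by 0.41 on the log2 scale (SD 0.08, limma adjusted p = 0.000693), IFT52 by 0.26 (SD 0.03, adjusted p = 0.00309), and Oseg4 was called at -0.21. Oseg5, another transport subunit, rose by 0.38 ± 0.05 (limma adjusted p = 0.000706), unc, a basal body gene, by 0.32 ± 0.10 (adjusted p = 0.0029) and rempA, a subunit of retrograde transport, by 0.31 ± 0.09 (adjusted p = 0.00304). BBS8 and the regulator Rfx were called at 0.18 and 0.15, and btv, the ciliary dynein heavy chain gene, lay at 0.00. Oseg5 was above background in w1118 on 2 of 4 arrays and in the null on 4 of 4. Its p may therefore be no independent evidence of the difference either. The sizes of these ciliary gene ratios depended on the background correction. With processed signals nompB was -4.03, Oseg5 1.75, rempA 0.82, BBS4 -0.67 and IFT52 -0.63. The median was 0.04, with 0.01 on slide 1 and 0.10 on slide 2, and 3 genes were called higher without replicate 2 or without replicate 3. Of 4 markers of ciliated sensory neurons, nompC and iav were not measured and nan and fd3F did not pass, with a summed signal of 349 to 384 in the null and 364 to 379 in w1118.

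Of 20 spindle and cytokinesis partners, all measured, 1 rose, 5 fell and 14 did not pass. pbl, a gene needed for cytokinesis, fell by 0.79 on the log2 scale (SD 0.10, limma adjusted p = 5.86e-05), with -0.63 by its other probe. Eb1, a protein of growing microtubule ends, fell by 0.39 (SD 0.06, limma adjusted p = 0.000778), but its other probe gave 0.09. sti, the citron kinase, fell by 0.32 (SD 0.14, limma adjusted p = 0.00538), with a dye-swap value of 0.00. aurB, the kinase of the chromosomal passenger complex, and mars were also called, at -0.30 and -0.16, with -0.06 and 0.17 by their other probes. polo, a mitotic kinase, rose by 0.21 ± 0.04 (limma adjusted p = 0.00873), while its other probe gave -0.20, and the call was lost without replicate 2 and without replicate 3. msps, a microtubule polymerase, lay at -0.01. The median was -0.02, with -0.02 on slide 1 and -0.03 on slide 2, and without replicate 1 the number called higher was 3.

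Of 10 tubulin genes, 9 were measured, and 0 rose, 4 fell and 5 did not pass in limma. alphaTub67C, the maternal alpha-tubulin, fell by 1.01 on the log2 scale (SD 0.11, limma adjusted p = 2.54e-05), and betaTub97EF by 0.65 (SD 0.03, adjusted p = 5.93e-05). betaTub56D, the main beta-tubulin of embryos, fell by 0.26 (SD 0.17, limma adjusted p = 0.018), but it gave 0.44 on the dye-swap array and 0.05 by its other probe. The betaTub56D call was lost without replicate 2 and without replicate 3. gammaTub37C, the maternal gamma-tubulin, was called at -0.15, and gammaTub23C lay at 0.02. The median was -0.12, with -0.08 on slide 1 and -0.17 on slide 2. Without replicate 2 or without replicate 3, 2 genes were called lower, and betaTub85D, the beta-tubulin of the male germ line, was not measured.

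**Figure D4:**
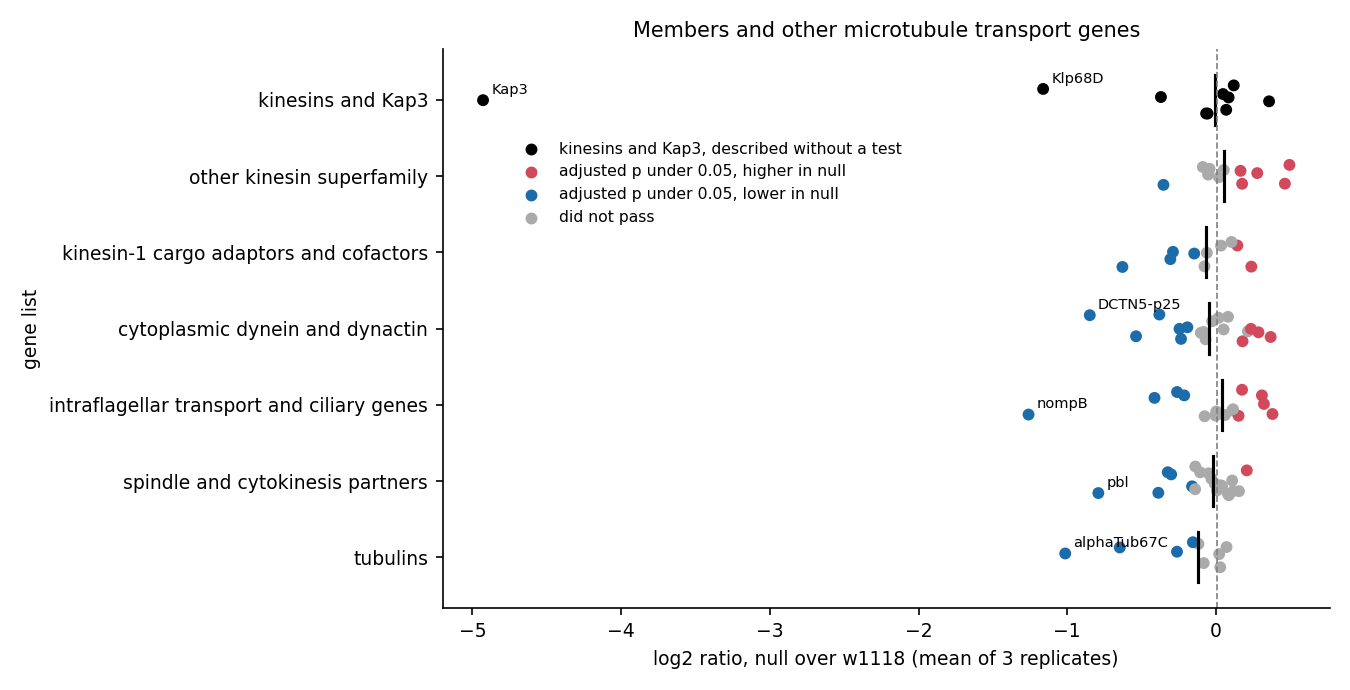
Mean log2 ratio of null over w1118 for each measured gene of the 10 described and of 6 lists of microtubule transport genes, with a bar at each list's median. Kap3 at -4.93 lies far from every other gene shown, and the list medians lie between -0.12 and 0.05.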

How the data were processed

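Per the file headers, the authors read the scans with Feature Extraction 10.1.1.1. From the deposited tables, each channel's median intensity per spot and median local background were taken, both without normalization. Per the file headers, the processed intensity had been dye-normalized after background subtraction, and the deposited log10 ratio, not used for any value, differed from the log10 of its Cy5 over Cy3 by a median of 0.000462 and by up to 1.00. The authors' series matrix, deposited as log2 values of unstated scale, centring and direction, followed the processed log2 ratios as w1118 over null, the opposite of the direction used here, with medians of -0.137, 0.0707, 0.128 and -0.0411. Centring beyond that was not seen.

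Normexp (offset 50) and loess within each array were run in limma 3.58.1 (R 4.3.3), giving control and outlier spots no weight. Ratios were turned to null over w1118 by the labelled dyes. Spots of a probe were averaged. A kept probe was well above background in 2 or more of 3 replicates of 1 genotype, which in replicate 1 required both arrays. A gene is its brightest kept probe. Of 32162 probes, 19482 were named, and 9737 genes were tested with limma's lmFit and eBayes and Benjamini-Hochberg adjustment. Tested on simulated data for this contrast over 9737 genes, the fit recovered 86% of 50 genes changed 1.2-fold and 100% at 1.5-fold, 2-fold and 4-fold, with 6 false calls of 199. The simulation gave every probe 1 noise level, so these shares do not carry over to the real calls. The number of arrays limits the precision.

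The members and lists were chosen with earlier results of these data known. By the rule for named genes, all 10 members were given with every probe. From each list came up to 3 called genes with the highest and 3 with the lowest ratios, of 1 sign in all replicates, and the gene nearest 0. The nearest measured gene on each side of each member and the 3 genes most like Kap3 completed the rule, and 1 neighbouring gene, counted with those higher, is not reported here. List genes called beyond these, and markers, were named once their values had been seen, to account for counts. The alternatives changed the background correction, the normalization, the filter, the probe summary, dye swap, slide, moderation and each replicate left out.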

Additional observations from a re-analysis of the deposited data

Results flagged for a closer look

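Over the 4 arrays, 3 of 19 quantities compared for the 10 genes had 1 array far from the other 3, and in each it was the dye-swap array. Chance alone would mark about 1 in 20 groups of 4 independent, alike values. The 4 arrays are not such values, since the dye-swap array shares extracts with another and has exchanged dyes. The rate is therefore no reference for the 3 of 19. On the dye-swap array Kap3 read -5.28 by probe A_09_P065041, against -4.88 to -4.85 on the unswapped arrays. Khc read -0.20 by its brighter probe, A_09_P042951, against -0.05 to -0.02. Klp61F read -0.37 by its dimmer probe, A_09_P116640, against 0.09 to 0.11. Over 19750 kept probes, ratios of the dye-swap array had a Pearson's r of 0.824 to 0.883 with the other arrays, and those had 0.941 to 0.958 among themselves, across probes that are not independent replicates. All ratios here are log2 of null over w1118, and the cause was not tested.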

How the results depend on the processing

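Over 15 alternatives, the ratios of Klp68D and ncd stayed below 0 and that of nod above 0. Those called lower among the 10 genes (3) ran from 2 to 4, with ncd past the threshold in 15 of 16 settings, the main one included, and Khc in 2. Over all genes, those called lower ran from 1023 to 3141 and those called higher from 1062 to 3303. Every setting reused the same 4 arrays, so the counts for the 10 genes are a description and no test. Kap3 (-4.93) was -7.25 with offset 0, -8.67 with processed signals or the matrix and -5.07 with a dye term, and it could not be measured where both channels had to be above background on all arrays. The count of the 10 genes called higher (1) was 2 with the mean of kept probes or the unswapped array alone, 0 without moderation and ran from 1 to 2 with a replicate left out. In 57 other named genes, 770 of 852 values kept the call, 77 lost it and 3 gained it. In the other 2 the sign turned where 1 of the values compared was called: ca with the mean of kept probes (-0.14), and betaTub56D with a dye term (0.0038). Genes that did not pass also crossed 0, such as Klp67A (-0.11 to 0.11) and egl (-0.16 to 0.13). Kif3C and DCTN1-p150 were -0.23 and egh 0.29 with processed signals. With a dye term neb was 0.13, Miro -0.18, ctp 0.25, BicD 0.37, sti -0.20 and CG32318 0.13. With the mean of kept probes Unc-76 was -0.14, Tm1 0.01, DCTN5-p25 -0.42, polo 0.01 and Eb1 -0.15. The cause of these changes was not tested.

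Without moderation, 1062 genes were called higher and 1023 lower. Of the neighbours 3 were higher and 1 lower, of other kinesins 1 and 0, of adaptors 0 and 0, of dynein genes 0 and 1. Of ciliary genes 3 were higher, of spindle partners 0 higher and 3 lower, and of tubulins 2 lower. Where only the dye swap stood for replicate 1, 1747 genes rose and 1681 fell. Then 4 neighbours, 2 other kinesins, 1 adaptor, 1 dynein gene and 0 spindle partners were higher, and 2 adaptors, 3 spindle partners and 2 tubulins lower. With median centring, 5 neighbours, 3 other kinesins, 1 adaptor, 2 dynein genes and 0 spindle partners were higher. With offset 0, 3 other kinesins and 1 adaptor were higher. With processed signals or the matrix, 1 adaptor and 1 tubulin were higher and 2 tubulins lower. With a dye term, 3 other kinesins were lower, and 2 spindle partners and 1 tubulin higher. Spindle partners called higher were 4 with the unswapped array alone and 2 with slide as a block, and tubulins 1 with the mean of kept probes.

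With each replicate left out in turn, genes called higher ran from 1768 to 3003 and lower from 1713 to 2846, neighbours called higher from 4 to 9, other kinesins called higher from 2 to 5 and adaptors called higher from 1 to 2. Dynein genes called lower ran from 3 to 7, ciliary genes called higher from 3 to 5, spindle partners called higher from 0 to 3, and tubulins called higher from 0 to 1 and lower from 2 to 6. The counts over all genes were lowest without replicate 3.

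The analysis was paired within arrays, since each array held both genotypes and its ratio was the value fitted. Replicates 2 and 3 had no dye swap, so a dye effect in them cannot be told apart from the genotype. The Kap3 ratio is limited by the null's signal at background.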
